A study of Mus musculus with 3 samples.

Results

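The genes of Polycomb repressive complex 1 (PRC1) described here were chosen by name and number 9: Pcgf2, Bmi1, Ring1, Rnf2, Phc1, Phc2, Cbx2, Cbx7 and Cbx8. On a mouse promoter array, 8 of these 9 genes had probes under these names, 119 probes in all out of 237203 outside the array's controls, and each gene formed 1 promoter out of 16164 tested. Phc2 was not analysed here.

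The study mapped chromatin bound by PRDM2, a PR domain zinc finger protein known as a histone H3 lysine 9 methyltransferase, in C2C12 cells arrested in G0. C2C12 is an established line of mouse myoblasts, and its arrested state serves as a culture model of quiescent muscle precursors; it is 1 line and holds no other cells of muscle. The precipitated chromatin came from the PRDM2 antibody on 2 arrays and from an antibody against dimethylated histone H3 lysine 9 (H3K9me2) on 1 array, with input DNA from the same cells as the second channel of each array. For all 3 arrays the cells were arrested in 2% methylcellulose, and fixed with 1% formaldehyde. A control-antibody array was not used here. Nothing says that the PRDM2 arrays came from separate cultures, so their p-values reflect no more than the spread between 2 arrays, which may be technical.

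PRC1 holds genes silent. A RING protein, either RING1 or RNF2 (RING1B), attaches ubiquitin to histone H2A and does so as a dimer with a PCGF protein such as PCGF2 (MEL18) or BMI1 (PCGF4). In the canonical complex a CBX protein binds the histone H3 methyl mark left by PRC2, and a PHC protein, the mammalian Polyhomeotic, links complexes to each other. BMI1 is known for holding down the Cdkn2a locus and so keeping precursor cells, muscle satellite cells among them, able to divide.

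Each value below is a log2 ratio of IP over input, set relative to the median probe of the same array, and a promoter's value is the mean over its probes. A value of 0 is therefore the median probe and not an absence of the protein or mark. A second value, relative to probes of like GC content, has the median of all probes of the same GC class (17 classes) taken from each probe first. Enriched means an adjusted p under 0.05 by limma's moderated test of the 2 PRDM2 arrays against 0, adjusted by Benjamini-Hochberg over all promoters. The H3K9me2 array has no replicate and no test, so a log2 ratio of at least 1 is only a description there. The number of arrays limits the precision throughout.

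The Pcgf2 promoter carried the highest PRDM2 signal of the 8 genes, and it is shown here because its mean over probes was the highest on every array. Its 300 bases around the RefSeq start site lie at chr11:97699599-97699898 of GRCm38.p6, read on the minus strand, with CpG dinucleotides in capitals:
Pcgf2 promoter: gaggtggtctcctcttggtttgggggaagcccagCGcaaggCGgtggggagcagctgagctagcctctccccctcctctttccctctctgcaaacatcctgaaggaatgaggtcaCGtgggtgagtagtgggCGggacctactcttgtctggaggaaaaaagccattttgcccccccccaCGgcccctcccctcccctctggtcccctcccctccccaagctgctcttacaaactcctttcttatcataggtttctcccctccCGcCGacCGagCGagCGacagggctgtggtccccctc
It holds 10 CpGs, and the median over 32851 RefSeq promoters of the same length is 7. For contrast, the Ring1 promoter at chr17:34024631-34024930 of GRCm38.p6, also on the minus strand, holds 37:
Ring1 promoter: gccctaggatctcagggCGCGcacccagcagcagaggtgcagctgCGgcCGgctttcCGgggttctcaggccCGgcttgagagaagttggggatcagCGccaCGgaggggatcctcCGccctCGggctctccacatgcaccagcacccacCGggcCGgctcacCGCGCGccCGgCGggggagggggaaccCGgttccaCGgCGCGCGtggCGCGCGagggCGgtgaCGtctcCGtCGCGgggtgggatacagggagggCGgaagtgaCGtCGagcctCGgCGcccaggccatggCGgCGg
The corresponding counts were 23 for Bmi1, 30 for Rnf2, 9 for Phc1, 33 for Cbx7 and 24 for Cbx8. Pcgf2 is near the bottom of these counts and at the top of the PRDM2 signal given below. The counts cover the RefSeq windows only, while the signal is a mean over all probes of a promoter. Over the probes themselves, CpGs per 100 bases were 4.11 for Ring1, 3.98 for Pcgf2, 3.67 for Rnf2 and 3.59 for Bmi1. They were 3.23 for Cbx8, 2.56 for Cbx7, 2.13 for Cbx2 and 1.29 for Phc1. Whether CpG content has a part in the order of the signal was not tested.

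Pcgf2 probes are short stretches of this promoter and its flanks. Probes 3, 4 and 6, which were high for PRDM2, and probe 7, the lowest of the gene, are printed as on the array with CpGs in capitals. Probes 1, 2 and 5 were also above the median probe on every array and are not printed. Probe 3 lies downstream of the start site, probe 4 across it, probe 6 upstream and probe 7 at the upstream edge:
Pcgf2 probe 3: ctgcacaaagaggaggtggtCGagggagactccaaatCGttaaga
Pcgf2 probe 4: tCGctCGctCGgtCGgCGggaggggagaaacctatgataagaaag
Pcgf2 probe 6: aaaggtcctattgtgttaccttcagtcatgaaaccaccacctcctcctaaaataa
Pcgf2 probe 7: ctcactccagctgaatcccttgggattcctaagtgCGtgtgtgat
For the array's own coordinates the build was not given in the sources used. Probe 4 also matched the RefSeq sequence above on the opposite strand, which put it at chr11:97699618-97699662 of GRCm38.p6, and the distances of the other Pcgf2 probes from the start site follow from it. Probes of Pcgf2, Ring1, Rnf2, Cbx7 and Cbx8 were placed in this way, while no probe of Bmi1 or Phc1 fell in a RefSeq promoter window and Cbx2 is named only.

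PRDM2 signal was above the median probe over the PCGF, RING and CBX genes and close to it over Phc1. At 7 of the 8 promoters the PRDM2 ratio was enriched, and 46.9% of all promoters were called by the same test. All 8 PRDM2 means were above 0, so no member was among the 1.08% of all promoters called depleted in this setting. The median PRDM2 ratio was 0.99 over the 8 promoters and 0.50 over all promoters. Relative to probes of like GC content, 2 of the 8 remained enriched, Pcgf2 and Bmi1, where 14.4% of all promoters were called. On that scale the median was 0.26 over the 8 genes and 0.24 over all promoters. The probes of the PRC1 genes were richer in GC, with a median over promoters of 48.8% against 43.9% for all promoters, and in CpG, with 3.41 against 1.66 CpGs per 100 bases. By construction the values on the 2 scales differ only by the median of each probe's GC class. Whether GC content has a part in the PRDM2 ratios themselves was not tested.

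**Figure D1:**
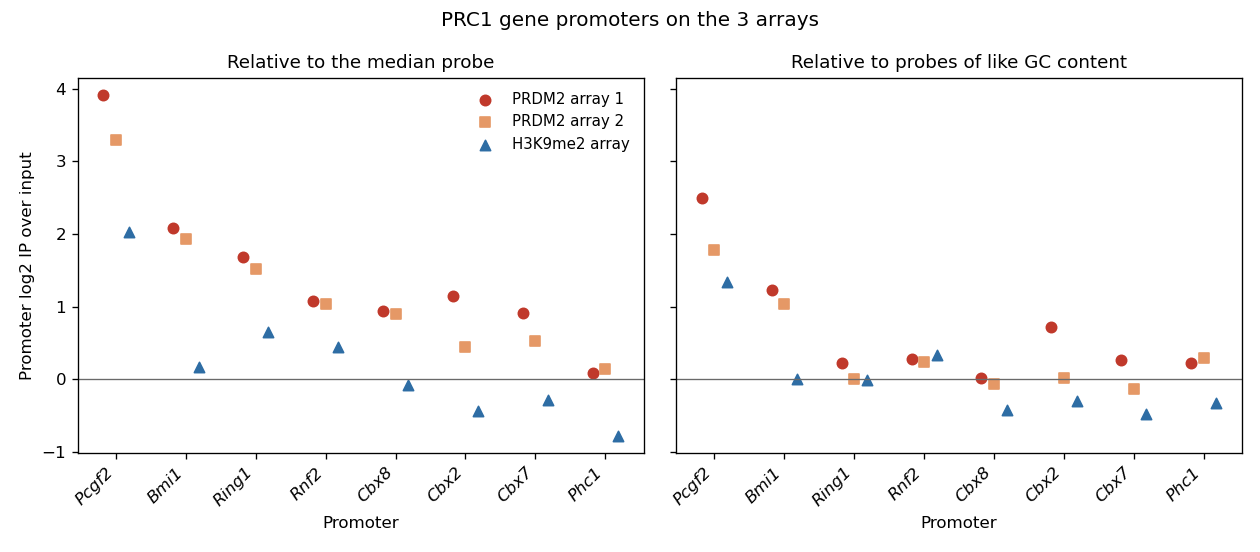
Log2 IP over input of the 8 measured PRC1 gene promoters on the PRDM2 arrays and the H3K9me2 array, relative to the median probe and relative to probes of like GC content, with each point 1 array. Pcgf2 is the highest gene on every array on both scales, and Bmi1 is second on both PRDM2 arrays on both scales.

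Of the PCGF genes, Pcgf2 encodes a RING finger partner of the E3 ligase. Its promoter (7 probes, chr11:97515010-97516295 in array coordinates) had log2 ratios of 3.91 and 3.29 on the PRDM2 arrays and 2.03 on the H3K9me2 array. All 3 values were the highest among the 8 genes. The PRDM2 mean was 3.60 ± 0.44 (SD, n = 2), with limma adjusted p = 1.18e-05, and ranked 3 of 16164 promoters. The H3K9me2 value ranked 34. Relative to probes of like GC content the values were 2.49 and 1.78 for PRDM2 and 1.34 for H3K9me2, and the PRDM2 mean of 2.14 ± 0.50 had a limma adjusted p of 7.31e-06 and ranked 20. The Pcgf2 probes span 1286 bp, while those of Cbx8 span 3900 bp and the median promoter has 15 probes. With the highest 3 neighbouring probes the PRDM2 mean was 4.765 for Pcgf2, 4.311 for Ring1, 4.041 for Bmi1 and 4.029 for Cbx2. It was 3.912 for Rnf2, 3.675 for Cbx7, 3.31 for Cbx8 and 0.919 for Phc1. The part of unequal spans in the promoter means was not tested.

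In processed intensity the median over the Pcgf2 probes was higher in IP than in input on every array. Probe 7 ran the other way on PRDM2 array 1, with 271 for IP and 584 for input. The median IP intensity of its probes was 11628 and 7838 on the PRDM2 arrays and 8457 on the H3K9me2 array, against median input intensities of 1587, 1194 and 1567 in the same order. Averaged over the probes, input stood at -0.16, -0.07 and -0.04 log2 from the input of all probes of like GC content. All 7 probes were well above background in both channels of every array. Single probes departed from that average in both directions: probe 4, with the highest PRDM2 mean, had input at -2.01, -1.59 and -0.61 log2 from like probes, and probe 6 at 1.75, 2.15 and 2.22. The part of input in the Pcgf2 ratio was not tested.

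Within Pcgf2 the signal spanned the start site. Probe 4, centred 8 bases downstream of it, had 5.37 and 5.39 for PRDM2 and 2.76 for H3K9me2. Probe 3, centred 391 bases downstream, had 6.07 and 3.52 for PRDM2 and 3.91 for H3K9me2. Of the 7 probes, 6 were above 0 on both PRDM2 arrays, the exception being probe 7, centred 535 bases upstream, with -0.19 and 1.50 for PRDM2 and 0.33 for H3K9me2. Probe 6, centred 308 bases upstream, holds no CpG and has a GC content of 40.0%, and it had 4.93 and 3.32 for PRDM2 and 2.42 for H3K9me2. Against probes of like GC content that probe stood at 5.31 and 3.75 for PRDM2 and 3.27 for H3K9me2, which placed it at percentiles 98.5, 98.0 and 95.3 of its class. Across the 7 probes Pearson's r between the PRDM2 mean and GC content was -0.05, the lowest among the 8 genes. Probes of 1 promoter share arrays and DNA fragments, so such correlations are descriptions only.

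**Figure D2:**
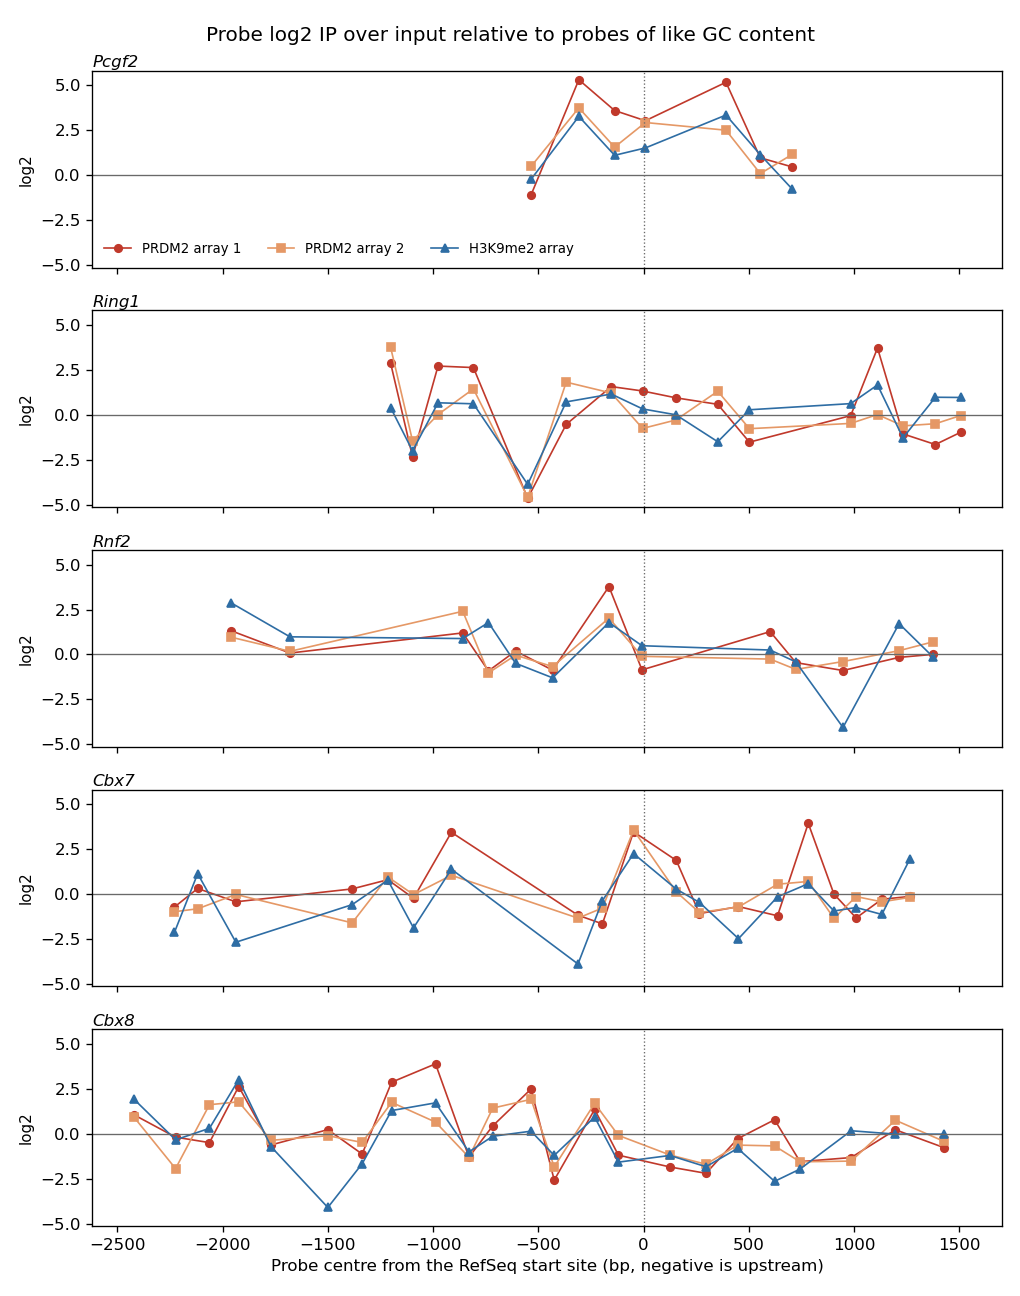
Log2 IP over input of each probe, relative to probes of like GC content, against distance from the matched RefSeq start site for the 5 genes whose probes could be placed, with a line for each array. In Pcgf2 the 6 probes from 308 bases upstream to 705 bases downstream lie above 0 on both PRDM2 arrays, and in Ring1 the probe 551 bases upstream lies at -4.64 and -4.58 for PRDM2 and -3.87 for H3K9me2.

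The promoters next to Pcgf2 did not share its level. Psmb3, a proteasome subunit gene whose probes begin 3375 bp away, had -0.08 and 0.48 for PRDM2 and -2.70 for H3K9me2. Its PRDM2 mean of 0.20 ± 0.39 (SD, n = 2) was not called (limma adjusted p = 0.467). On the same side Pip4k2b, named Pip5k2b on the array and 43180 bp from Pcgf2, averaged 0.89 ± 0.02, and on the other side Mllt6, 34025 bp away, averaged 1.23 ± 0.22.

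Bmi1 is the paralogue of Pcgf2 and had the second highest PRDM2 ratio in this setting. Rnf2 stood above it with loess (0.64 against 0.61), and Ring1 did with the highest 3 neighbouring probes (4.31 against 4.04). The 6 Bmi1 probes, at chr2:18594060-18596172 in array coordinates, averaged 2.08 and 1.93 for PRDM2 and 0.17 for H3K9me2. Both PRDM2 arrays lay above the H3K9me2 array, but with normexp the difference was -0.58. The PRDM2 mean of 2.01 ± 0.11 (SD, n = 2) was enriched (limma adjusted p = 5.76e-05), and so was the value of 1.13 ± 0.14 relative to probes of like GC content (limma adjusted p = 0.00174). On that second scale the H3K9me2 mean was 0.00, from probes that ran both ways. In array order the 6 probes had 1.83, 0.45, 2.05, -1.49, -0.10 and -2.72 for H3K9me2. The IP spot of the last of them was not well above background on the H3K9me2 array. Pearson's r between the PRDM2 mean and the H3K9me2 ratio relative to the median probe was 0.96 across the 6 probes.

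Bmi1 had 3 GC-rich probes followed by 3 GC-poor ones, and the GC-rich ones were higher on both PRDM2 arrays. A probe from each side of that boundary, 82 bases apart, is printed with CpGs in capitals:
Bmi1 probe 3: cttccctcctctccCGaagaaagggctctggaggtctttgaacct
Bmi1 probe 4: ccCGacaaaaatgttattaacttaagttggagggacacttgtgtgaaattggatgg
Probe 3, with a GC content of 55.6%, had 6.02 and 3.45 for PRDM2 and 2.90 for H3K9me2. Probe 4, with a GC content of 39.3%, had -0.14 and -1.52 for PRDM2 and -2.35 for H3K9me2. Both antibodies gave a higher ratio at probe 3 than at probe 4, while the GC-poor probe 5 had 0.25 and 1.78 for PRDM2 and -0.95 for H3K9me2. The PRDM2 mean followed GC content with a Pearson's r of 0.90 across the 6 probes, so the Bmi1 profile differed in that respect from that of Pcgf2. Commd3, the neighbouring gene 2527 bp from the Bmi1 probes, averaged 0.69 ± 0.12 for PRDM2 and had 0.51 for H3K9me2.

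The RING genes encode the catalytic subunits. Ring1 (16 probes, chr17:33633606-33636361 in array coordinates) had 1.69 and 1.52 for PRDM2 and 0.65 for H3K9me2. Rnf2 (13 probes, chr1:153261804-153265199) had 1.08 and 1.04 for PRDM2 and 0.45 for H3K9me2. Both PRDM2 arrays were above the H3K9me2 array at each gene, but the difference turned below 0 for Ring1 with normexp (-0.89) or the median over probes (-0.14). It did so for Rnf2 with loess (-0.28), the median promoter as 0 (-0.12), GC class medians removed (-0.070) or the median over probes (-0.65). The PRDM2 mean was 1.60 ± 0.12 for Ring1 (limma adjusted p = 0.000171) and 1.06 ± 0.03 for Rnf2 (limma adjusted p = 0.0014; SD, n = 2 for both). Relative to probes of like GC content neither was called: Ring1 stood at 0.12 ± 0.15 (limma adjusted p = 0.735) and Rnf2 at 0.26 ± 0.03 (limma adjusted p = 0.400).

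The Ring1 profile was uneven upstream of its start site. Its probe 10, part of the Ring1 sequence printed above and centred 154 bases upstream, was high on every array, while probe 12, centred 551 bases upstream, was the lowest Ring1 probe on every array despite a GC content of 57.8%:
Ring1 probe 10: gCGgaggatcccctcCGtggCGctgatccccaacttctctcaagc
Ring1 probe 12: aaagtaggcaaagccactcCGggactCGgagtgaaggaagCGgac
Probe 10 had 5.18 and 4.87 for PRDM2 and 2.78 for H3K9me2. Probe 12 had -2.31 and -2.12 for PRDM2 and -2.63 for H3K9me2. Set against probes of like GC content, probe 12 stood at -4.64 and -4.58 for PRDM2 and -3.87 for H3K9me2. The IP spot of probe 12 was not well above background on either PRDM2 array, so its PRDM2 ratios mark only a bound, while on the H3K9me2 array it was well above background. The next probe upstream of it, probe 13, was high again with 4.12 and 3.04 for PRDM2 and 1.47 for H3K9me2.

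In Rnf2 the highest probe was again just upstream of the start site and the 9 probes with a GC content under 45% had PRDM2 means between -1.31 and 1.54. Probe 7, centred 165 bases upstream, is printed as the peak of this gene with CpGs in capitals:
Rnf2 probe 7: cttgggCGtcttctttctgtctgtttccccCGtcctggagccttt
It had 5.26 and 3.62 for PRDM2 and 2.63 for H3K9me2. The PRDM2 arrays agreed more closely across the probes of Rnf2 (Pearson's r of 0.94) than across those of any other of the 8 genes. Rnf2 input was dim, at -0.34, -0.52 and -0.84 log2 from input of like GC content, and input was well above background at 12, 12 and 9 of its 13 probes on PRDM2 array 1, PRDM2 array 2 and the H3K9me2 array. Its IP spots cleared background at 8, 7 and 10 probes. With probes of dim input left out its PRDM2 mean was 1.67.

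Phc1, a Polyhomeotic gene, was the one member that was not enriched. Its 15 probes, at chr6:122302168-122304979 in array coordinates, averaged 0.09 and 0.14 for PRDM2 and -0.78 for H3K9me2. The PRDM2 mean was 0.12 ± 0.04 (SD, n = 2; limma adjusted p = 0.648). This was also the most GC-poor promoter of the 8, at 39.0%, and relative to probes of like GC content it stood at 0.26 ± 0.05 (limma adjusted p = 0.412), close to the median of all promoters on that scale. Its small SD covers a promoter mean only, since the PRDM2 arrays had a Pearson's r of 0.09 across its probes. At probe 15 they had 0.85 and 4.12. The IP spots were well above background at 11, 6 and 8 of its 15 probes on PRDM2 array 1, PRDM2 array 2 and the H3K9me2 array.

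The CBX genes encode the chromodomain subunits, and their PRDM2 means lay between those of the RING genes and Phc1. Cbx8 (23 probes, chr11:118855551-118859450 in array coordinates) had 0.93 and 0.90 for PRDM2 and -0.07 for H3K9me2. Cbx2 (20 probes, chr11:118837064-118840525) had 1.15 and 0.45 for PRDM2 and -0.43 for H3K9me2. Cbx7 (19 probes, chr15:79758611-79762154) had 0.91 and 0.53 for PRDM2 and -0.29 for H3K9me2. The PRDM2 arrays were positive and the H3K9me2 array negative at all 3 genes in this setting, and these signs depended on the processing. Medians over all promoters had the same signs, with 0.58 and 0.43 on the PRDM2 arrays and -0.23 on the H3K9me2 array. The PRDM2 mean was below 0 for Cbx7 with normexp background correction (-0.037), loess (-0.45) or the median over probes (-0.051), for Cbx2 with the median over probes (-0.17) and for Cbx8 with GC class medians removed (-0.021). The H3K9me2 ratio was above 0 with normexp for Cbx8 (0.79), Cbx2 (0.51) and Cbx7 (0.85). With the highest 3 neighbouring probes it was above 0 for Cbx8 (1.63), Cbx2 (2.12) and Cbx7 (1.92). Cbx2 was also above 0 with the median over probes (0.40) or the authors' value table (0.007). Cbx8 was so with the median promoter as 0 (0.16), dim input left out (0.028) or the authors' value table (0.006). The PRDM2 means were 0.92 ± 0.03 for Cbx8 (limma adjusted p = 0.00318), 0.80 ± 0.50 for Cbx2 (limma adjusted p = 0.0122) and 0.72 ± 0.27 for Cbx7 (limma adjusted p = 0.0137; SD, n = 2 for each). Their ranges over the PRDM2 arrays overlapped, so these 3 had no order among themselves, and the range of Rnf2 lay inside that of Cbx2. Pcgf2, Bmi1 and Ring1, in that order, lay above all other members on both PRDM2 arrays in this setting, and Phc1 lay below all others. With loess the PRDM2 mean of Rnf2 (0.64) was above that of Bmi1 (0.61). Ring1 (0.191) was then below Cbx2 (0.199), and Phc1 (0.038) was above Cbx7. After removal of GC class medians none of the 3 CBX genes was called, with -0.021 ± 0.055 for Cbx8, 0.37 ± 0.50 for Cbx2 and 0.07 ± 0.28 for Cbx7. On that scale only Pcgf2 and Bmi1 were separated from the next gene, and every neighbouring pair among the other 6 overlapped.

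Among the CBX probes the highest lay at a start site. Cbx7 probe 10, centred 48 bases upstream of the start site, holds 6 CpGs and is printed because it had the highest mean of the PRDM2 arrays among CBX probes, with CpGs in capitals:
Cbx7 probe 10: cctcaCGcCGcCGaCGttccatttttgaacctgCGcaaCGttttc
It had 4.95 and 5.15 for PRDM2 and 3.11 for H3K9me2, and relative to probes of like GC content it had 3.47 and 3.56 for PRDM2 and 2.25 for H3K9me2. Cbx7 probe 12, centred 312 bases upstream, had a PRDM2 ratio of -1.22 on array 1, and its IP was not well above background on PRDM2 array 2 or the H3K9me2 array. Cbx7 lies on chromosome 15, whose input was above that of other autosomes at like GC content: the Cbx7 input stood at 0.65, 0.45 and 0.47 log2, and the median of chromosome 15 at 0.62, 0.58 and 0.59. The part of that input level in the Cbx7 ratio was not tested.

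In Cbx2 the PRDM2 arrays parted at single probes. Probe 5 had 0.34 on PRDM2 array 1 and 4.06 on array 2, and probe 12 had 4.91 on array 1 while its IP was not well above background on array 2. Cbx2 IP spots were well above background at 15, 12 and 17 of 20 probes on PRDM2 array 1, PRDM2 array 2 and the H3K9me2 array. On the H3K9me2 array probes 1, 7 and 8 had -5.59, -4.81 and -3.61 with IP not well above background. Those ratios mark only a bound, and they enter the H3K9me2 mean of Cbx2. The 7 Cbx2 probes in a row from number 13 to 19 were above 0 on all 3 arrays, and 11 of the 12 before them had a GC content under 45%. Cbx2 and Cbx8 are neighbours, 15025 bp apart on chromosome 11. Both were enriched for PRDM2, and neither had an H3K9me2 log2 ratio of 1.

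**Figure D3:**
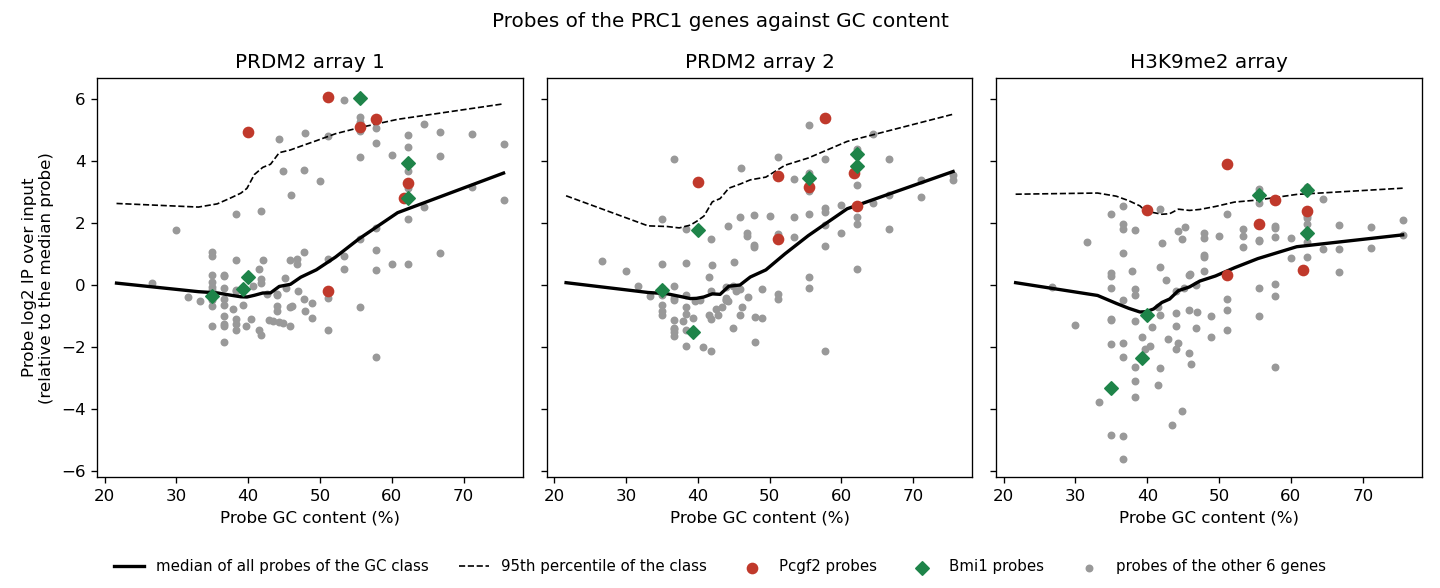
Log2 IP over input of the 119 probes of PRC1 genes, relative to the median probe, against probe GC content on each array, with the median and the 95th percentile of all probes in each of the 17 GC classes as lines. The class median is higher at high GC content on every array, and Pcgf2 probe 6, at a GC content of 40.0%, lies above the 95th percentile on all 3 arrays.

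Taken probe by probe, GC content separated high from low probes of the PRC1 genes much as it did on the whole array. Of the 36 member probes with a GC content of at least 55%, 34 (94.4%) were above 0 on both PRDM2 arrays, and 90.7% of all such probes were. Of the 56 member probes under 45%, 11 (19.6%) were above 0 on both, and 22.3% of all such probes were. The limma test per probe called 7 of 119 member probes enriched (5.88%), where 4.99% of all probes were called. These were Pcgf2 probe 4, Bmi1 probe 2, Ring1 probe 10, Cbx2 probe 13, Cbx7 probe 10 and Cbx8 probes 10 and 12, each with an adjusted p of 0.0483. Against the median of its own GC class, 62 member probes were higher on PRDM2 array 1 (52.1%), 55 on PRDM2 array 2 (46.2%) and 59 on the H3K9me2 array (49.6%). Only 2 of 119 (1.68%) were in the upper 5% of their class on both PRDM2 arrays, Pcgf2 probes 4 and 6, and 1.25% of all probes were.

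PRDM2 ratios were above the H3K9me2 ratio over the PRC1 genes, and the median over all promoters ran the same way. Both PRDM2 arrays were above the H3K9me2 array at 8 of 8 promoters, although the difference turned below 0 at 6 of them with normexp and at Rnf2 and Phc1 with loess. The share of all promoters with both PRDM2 arrays above was not counted, so nothing particular to these genes can be read from the count of 8. Medians over all promoters were 0.58 and 0.43 on the PRDM2 arrays and -0.23 on the H3K9me2 array, but medians of single arrays do not give that share. The limma test of PRDM2 minus H3K9me2, which assumes that the single H3K9me2 array varies as the PRDM2 pair does, called 6 of 8 higher, where 41.1% of all promoters were called. The median difference was 1.00 over the 8 genes and 0.85 over all promoters. Bmi1 had the widest difference, 1.83 with a standard error of 0.35 (limma adjusted p = 0.0119), and Pcgf2 followed with 1.57 and a standard error of 0.38 (limma adjusted p = 0.0155). Rnf2, with 0.61 and a standard error of 0.34 (limma adjusted p = 0.149), and Phc1, with 0.90 and a standard error of 0.34 (limma adjusted p = 0.0535), were not called in this setting, although Rnf2 was with dim input left out (limma adjusted p = 0.0382) and Phc1 with at least 5 probes required (0.0468) or a variance trend (0.0316). After removal of GC class medians 0 of 8 were called by limma, with 1 of 8 at an unadjusted p under 0.05, where 2.81% of all promoters were called.

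H3K9me2 itself was high at 1 of the 8 genes, Pcgf2, by the rule of a log2 ratio of at least 1, which 4.08% of all promoters met. The 4 genes above 0 were Pcgf2, Ring1, Rnf2 and Bmi1, but with loess Bmi1 was below 0 (-0.19) and Phc1 above it (0.17), and with normexp the 3 CBX genes were above 0. CBX genes also turned above 0 in the other settings given above. The median was 0.05 over the 8 genes and -0.23 over all promoters. Relative to probes of like GC content it was -0.15 over the 8 genes and -0.13 over all promoters.

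**Figure D4:**
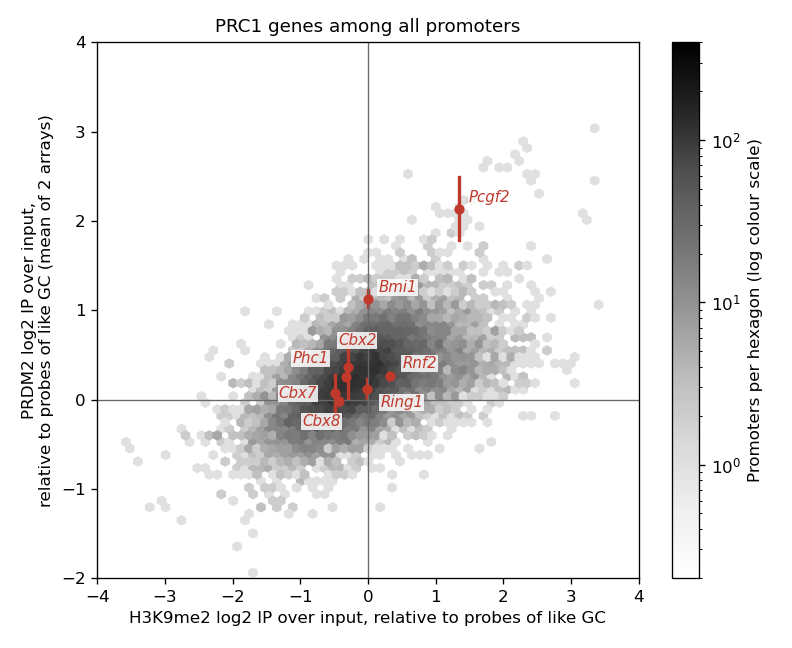
Mean log2 PRDM2 ratio against the H3K9me2 log2 ratio, both relative to probes of like GC content, for all 16164 promoters as shading by number of promoters and for the 8 PRC1 genes as named points with a line over the range of the PRDM2 arrays. Pcgf2 lies to the upper right of the bulk, and 6 genes other than Pcgf2 and Bmi1 lie within it. Bmi1 lies high for PRDM2 at 0.00 for H3K9me2, a mean over probes that ran both ways.

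Calls depended on where 0 was set. All promoters had a median PRDM2 ratio of 0.50, and with that median promoter as 0, 4 of the 8 genes were enriched (17.2% of all promoters). That setting split all promoters into 2774 enriched and 2100 depleted and loess into 3336 enriched and 1158 depleted, where the main setting gave 7586 enriched and 174 depleted. Under loess 3 of the 8 genes were enriched, Pcgf2, Rnf2 and Bmi1 (20.6% of all promoters), and Cbx7 was called depleted at -0.45 (limma adjusted p = 0.0317). With normexp background correction limma called 0 of the 8 genes and no promoter of the array, with 3 of the 8 at an unadjusted p under 0.05. Under normexp Pcgf2 had a PRDM2 mean of 1.72 (limma adjusted p = 0.400) and Bmi1 of 0.66 (limma adjusted p = 0.412).

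Other genes of the same pathway, taken from lists chosen with earlier results of these data known, were described by the same counts. Of 20 further PRC1 genes 17 were measured, in 18 promoters, and 14 of the 18 were enriched for PRDM2 (77.8%, with 46.9% of all promoters called). Their median was 1.19 for PRDM2 and 0.08 for H3K9me2, and relative to probes of like GC content the PRDM2 median was 0.36. The highest were Bcor, a corepressor of the PCGF1 complex, with 2.16 ± 0.37, Scmh1, a sex comb on midleg homologue, with 2.01 ± 0.57, and E2f6, a repressive E2F factor of PRC1 variants, with 1.88 ± 0.63. Relative to probes of like GC content Bcor had 0.88 ± 0.34, Scmh1 0.85 ± 0.58 and E2f6 0.82 ± 0.64. Of 11 genes of PRC2, the complex that methylates the histone tail read by CBX proteins, 10 were measured and 7 enriched (70.0%). The PRC2 median was 0.77 for PRDM2 and -0.10 for H3K9me2, and 0.21 for PRDM2 relative to probes of like GC content. The highest were the histone chaperone genes Rbbp4 with 1.49 ± 0.22 and Rbbp7 with 1.39 ± 0.05, and Phf1, a PRC2 accessory factor, with 1.29 ± 0.17. Relative to probes of like GC content Rbbp4 had -0.10 ± 0.20, Rbbp7 0.40 ± 0.05 and Phf1 0.23 ± 0.14. The median of all promoters on that scale was 0.24. Pcgf2, at 3.60, stood above every measured gene of both lists.

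Short motifs were searched on both strands of the RefSeq promoter windows of the members. The GC box GGGCGG was found in Bmi1 (6 matches), Ring1 (3), Rnf2 (2) and in Pcgf2, Cbx7 and Cbx8 (1 each) but not in Phc1, and 35.7% of all promoters hold it. The E-box CACGTG was found once in each of Pcgf2, Bmi1 and Cbx8, and 7.15% of all promoters hold it. CCAAT was found in Cbx7 and Cbx8 (37.4% of all promoters), and TATAAA in none of these 7 (13.6% of all promoters). A match says only that these letters lie in the window.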

How the data were processed

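Per the file headers, the authors deposited scanner intensities made by Agilent Feature Extraction 10.5.1.1: processed intensities of each channel, with background subtracted and dyes normalized linearly, the raw mean and local background intensities, a log10 ratio of IP over input, and flags for spots not well above background or outlying. IP DNA was Cy5 and input Cy3 on every array, per the labels, with no exchange of dyes. Dye and the difference between IP and input therefore cannot be told apart. The authors' deposited value table, on a log2 scale, correlated with the ratios used here at 0.965, 0.940 and 0.972 on PRDM2 array 1, PRDM2 array 2 and the H3K9me2 array; its column medians were 0.124, 0.103 and 0.278 and its exact normalization stays unknown.

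From the processed intensities, log2 of IP over input was taken and the median probe of each array set to 0; it lay at -0.91, -0.80 and -0.27 before that. Outlier spots (773, 107 and 218; none in the PRC1 genes) were left out. Probes of 1 gene name were split into promoters at gaps over 10000 bp, promoters needed at least 3 probes on every array, and a promoter's value was the mean. GC class medians came from all probes in 17 classes. limma 3.58.1 in R 4.3.3 (lmFit, eBayes) was fitted over all promoters or all probes with Benjamini-Hochberg adjustment at 0.05, and was tested on simulated data. The median IP intensity was 1.47, 1.39 and 6.44 times that of negative control spots, and 3.48, 4.66 and 6.12 times for input. IP spots were well above background at 75.7, 71.1 and 78.9% of probes. Promoter values of the PRDM2 arrays had a Pearson's r of 0.726, and 0.529 relative to probes of like GC content. Sequences and start sites are from RefSeq (GRCm38.p6).

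The named genes were the 9 members, promoters within 50 kb of a member probe (1 is not reported here), and up to 3 called genes of each list with the highest PRDM2 mean; for Pcgf2 and Bmi1, also the 3 promoters with at least 10 probes nearest in Euclidean distance over the 3 arrays. The members and lists were chosen with earlier results of these data known. Alternatives were normexp background, loess, other centring, GC class medians, probe filters, the value table, other promoter summaries and a variance trend.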

Additional observations from a re-analysis of the deposited data

How the results depend on the processing

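The count of 7 PRC1 promoters enriched for PRDM2 was 0 with normexp background correction (3 at an unadjusted p under 0.05, limma), 3 with loess, 4 with the median promoter as 0, and 2 with GC class medians removed or with the median over probes. It stayed at 7 under the other 6 alternatives, which called 41.1 to 82.8% of all promoters, with 82.8% under the highest 3 neighbouring probes. The count of 6 promoters with PRDM2 above H3K9me2 was 0 with normexp, loess, the median promoter as 0, GC class medians removed, the median over probes or the highest 3 neighbouring probes (limma; at an unadjusted p under 0.05, 0, 1, 2, 1, 1 and 6), and 3 with the authors' value table. The count of 7 enriched probes was 0 with normexp, GC class medians removed, probes of bright input alone or the value table (14, 19, 40 and 37 at an unadjusted p under 0.05, limma), 11 with loess (5.33% of all probes) and 14 with a variance trend (4.15%). Promoters with an H3K9me2 log2 ratio of at least 1, 1 in the main setting, numbered 3 with normexp (10% of all promoters) or the median over probes (8.51%) and 8 with the highest 3 neighbouring probes (67.2%).

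The PRDM2 ratio turned sign for Cbx2 (-0.17, median over probes), Cbx7 (-0.037 with normexp, -0.45 with loess, -0.051 with the median over probes), Cbx8 (-0.021, GC class medians removed) and Phc1 (-0.016 with normexp, -0.38 with the median promoter as 0, -0.27 with the median over probes). Pcgf2 kept its sign, with 1.72 under normexp (limma adjusted p = 0.400) and 1.37 under loess. PRDM2 minus H3K9me2 turned sign with normexp for Pcgf2 (-0.84), Bmi1 (-0.58), Ring1 (-0.89), Cbx2 (-0.14), Cbx7 (-0.88) and Cbx8 (-0.67); with the median over probes for Ring1 (-0.14), Rnf2 (-0.65) and Cbx2 (-0.57); with loess for Rnf2 (-0.28) and Phc1 (-0.13); for Rnf2 with the median promoter as 0 (-0.12) and GC class medians removed (-0.070); and for Phc1 with the highest 3 neighbouring probes (-0.18). The cause of these changes was not tested.

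Leaving out either PRDM2 array leaves no residual degrees of freedom, so no count exists without it. Each log2 ratio already pairs IP with the input of the same array. PRDM2 and H3K9me2 arrays could not be paired with each other because the H3K9me2 array has no replicate number. Each slide held 1 array, so slide and antibody cannot be told apart. The dim IP channel of the PRDM2 arrays limits what low ratios show.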

Other observations

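The promoters whose values over the 3 arrays lay nearest to those of Pcgf2 were Zfy1 (Euclidean distance 0.88), Rasip1 (0.95) and Cdkn2a (1.22). Their input was below that of probes of like GC content, at -3.22, -3.24 and -2.52 for Zfy1, -1.19, -1.12 and -0.96 for Rasip1, and -3.54, -3.58 and -3.04 for Cdkn2a, on PRDM2 array 1, PRDM2 array 2 and the H3K9me2 array. Zfy1 lies on chromosome Y, whose median input stood at -3.25, -3.95 and -2.26 in the same order. Pcgf2 input, averaged over its probes, lay between -0.16 and -0.04, while its probe 4 stood at -2.01, -1.59 and -0.61. The part of dim input in the ratios of Zfy1, Rasip1 and Cdkn2a was not tested. Nearest to Bmi1 were Igf2bp1 (0.15), Pcnx (0.17) and Pax2 (0.18).

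Other promoters within 50 kb of a member spanned a wide range. Beside Ring1, in the major histocompatibility region, H2-K1 (3 probes) had 4.17 and 2.05 for PRDM2 and 2.45 for H3K9me2, while H2-Ke6, whose probes begin 643 bp from those of Ring1, had 0.32 and 1.45 for PRDM2 and -0.36 for H3K9me2. Slc39a7 had -0.43 and 0.11 for PRDM2, Rxrb 1.04 and 0.78, and Col11a2 0.34 and 0.55. BC061194, beyond Bmi1, had 0.63 and 0.41 for PRDM2 and 0.76 for H3K9me2. Enpp7, beside Cbx2, had 0.68 and 0.43 for PRDM2. Apobec3, on the Cbx7 side, had 0.95 and 0.31, and M6pr, on the Phc1 side, had -0.26 and -0.55.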
